A study of Mus musculus with 2 samples.

Results

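The clustered protocadherin genes are the 57 protein-coding genes on mouse chromosome 18 whose names begin with Pcdha, Pcdhb or Pcdhg in the GENCODE vM21 annotation of mm10 (GRCm38). They were chosen by name and position and not by any measured value, out of 21938 protein-coding genes. They lie on the same strand between 36930184 and 37841873, a stretch of 912 kb that held 73 of the 119502 accessible intervals in the count table. The alpha cluster has 14 genes, the beta cluster 22 and the gamma cluster 21. GENCODE gives the name Pcdha11 to a pair of neighboring genes, so the one nearer to Pcdha9 (ENSMUSG00000007440.10) is called the upstream Pcdha11 gene here, and Pcdha11 alone means ENSMUSG00000102206.5.

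The clustered protocadherins are cell surface proteins of the cadherin superfamily that let neurons tell their own processes from those of other neurons. Each gene has its own promoter and 1 large variable exon that encodes the extracellular, transmembrane and proximal cytoplasmic parts, and in the alpha and gamma clusters the variable exons are spliced to constant exons shared by the whole cluster, whereas beta genes have no constant exons. Most of the genes are alternate isoforms, which single neurons use a few at a time. The C-type isoforms (Pcdhac1, Pcdhac2, Pcdhgc3, Pcdhgc4 and Pcdhgc5) are used more uniformly, and promoter choice is known to involve CTCF, cohesin, DNA methylation and distal enhancers.

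The study profiled ventral neural progenitors made from mouse embryonic stem cells with ATAC-seq, an assay that uses a transposase (Tn5) to tag open chromatin for sequencing. Both libraries belong to the only group used here, live_ATAC, which was an Olig2-2A-mKate2 reporter line (mKate2 is a red fluorescent protein made together with the transcription factor OLIG2) treated with 100 nM SAG, a Smoothened agonist that activates Sonic hedgehog signaling, and 100 nM RA (retinoic acid). On day 5, mKate2-positive live cells were sorted, and 50000 of them were transposed per library by the Omni-ATAC protocol. The sorted population also contains young motor neurons that keep the reporter and, as the study describes, some cells positive for both OLIG2 and NKX2.2. With 1 reporter line and 1 group no condition was compared.

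The libraries held 31876165 counts in replicate 1 and 31672240 in replicate 2. The labels number the replicates without saying that they came from separate cultures, so the errors below (SD, n = 2) may be technical. The 7 progenitor markers examined (Sox1, Sox2, Nes, Pax6, Nkx6-1, Olig2 and Olig1) had an interval at the transcription start site (TSS, the 5′ end of the annotated gene), with a median of 862 ± 25.8 normalized counts per kb. Of 6 motor neuron genes, 5 had one (all but Chat), with a median of 478 ± 24.3 over the list. Of 4 p3 and floor plate markers, Nkx2-2 and Nkx2-9 had one and Foxa2 and Shh did not, although for all 4 the nearest interval was at most 1 kb away. Among 6 pluripotency genes, Pou5f1, Nanog and Dppa4 had none, whereas Klf4 (1943 and 1808 counts, density 565), Zfp42 (237) and Esrrb (139) had one, and the list's median was 69.3 ± 2.05. Of 7 fibroblast feeder genes, 4 had one, with a list median of 123 ± 8.76. The part of the other cell types in the values below was not tested.

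Intervals were placed at the TSS of 35 of the 57 genes (61.4%), against 61.5% of all protein-coding genes. The count of intervals was thus near the background, and the clusters differed in how many genes had one. A TSS interval was present at 9 of 14 alpha genes, 8 of 22 beta genes and 18 of 21 gamma genes. By type, these were 7 of 12 alternate alpha genes, 11 of 12 gamma A genes, 5 of 6 gamma B genes and 4 of 5 C-type genes. In bulk libraries, fewer cells with an open promoter and less signal in every cell cannot be told apart.

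The 22 genes without a TSS interval were Pcdha1, Pcdha6, Pcdha7, Pcdha8 and Pcdha9 in the alpha cluster, Pcdhgb1, Pcdhga12 and Pcdhgc5 in the gamma cluster, and 14 beta genes. The beta genes were Pcdhb4 to Pcdhb10, Pcdhb12 to Pcdhb15, Pcdhb17, Pcdhb18 and Pcdhb22. For 7 of the 22, an interval lay within 1 kb of the TSS without covering it. The distance was 2 bp at Pcdhgb1, 54 bp at Pcdhb17, 62 bp at Pcdha1, 122 bp at Pcdhb13, 187 bp at Pcdha7, 191 bp at Pcdhga12 and 377 bp at Pcdhb22. These 7 intervals were weak, with densities from 21.6 ± 1.44 at Pcdha1 (10 and 11 counts) to 150 ± 13.0 at Pcdhga12 (87 and 77 counts). All of them but the one at Pcdhb13 lay downstream of the TSS. With these, 42 of the 57 genes (73.7%) had an interval within 1 kb, against 67.8% of all protein-coding genes. A gene without an interval is one where no peak was kept in the consensus set, and reads outside intervals are not in the table.

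**Figure D1:**
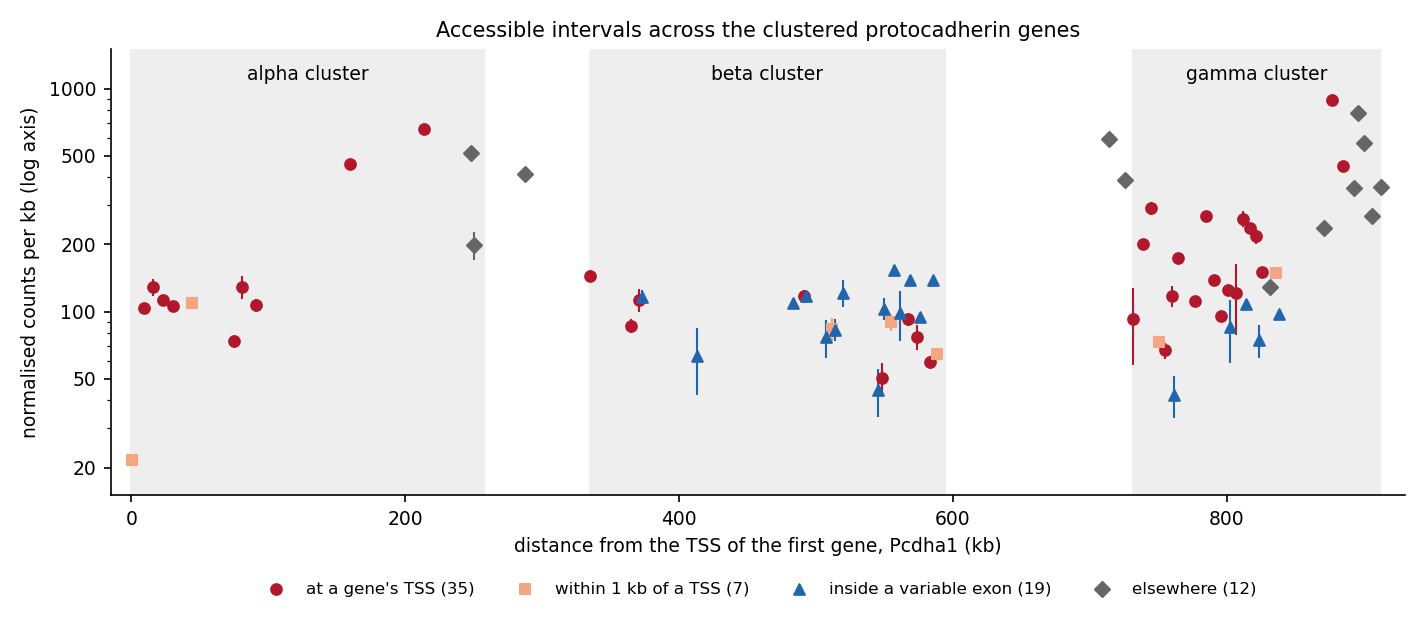
Intervals across the 912 kb from the first to the last clustered protocadherin gene, by distance from the TSS of Pcdha1 (x axis, kb) and mean density of both replicates (y axis, normalized counts per kb, log scale). Vertical lines join the replicate values, and grey bands mark the clusters. The C-type TSS intervals sit above the TSS intervals of the alternate genes, and of the 12 intervals elsewhere, those at 199, 237, 269 and 129 lie within the range of the alternate genes (50.2 to 291).

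Promoter density, the normalized count per kb of the TSS interval with 0 for genes without one, had a median of 88.0 ± 13.2 over the 57 genes (97.3 in replicate 1 and 78.6 in replicate 2). Over all protein-coding genes the median was 402 ± 7.93. The ratio of these medians was 0.218 ± 0.0286. Over the 35 genes with a TSS interval the median was 123 ± 7.57, against 883 ± 19.2 over all genes with one, a ratio of 0.139 ± 0.00555. The share of genes with a TSS interval was thus near the background, whereas the density at those intervals was lower in both libraries. Their TSS intervals were also shorter, with a median length of 712 bp against 1237 bp over all genes with one, so counts per interval differed more than densities did. Only 4 of the 57 genes, all of them C-type, had a density above the median of all protein-coding genes, 402. That median counts genes without a TSS interval as 0. Against the median of 883 over genes with one, Pcdhac1 (461), Pcdhac2 (656) and Pcdhgc4 (448) were lower. Pcdhgc3 (887 ± 26.6) differed from it by less than its replicate SD.

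The 4 C-type genes with a TSS interval had the most accessible promoters in the clusters. Pcdhgc3, the first C-type gene of the gamma cluster, had 1521 counts in replicate 1 and 1459 in replicate 2 in its TSS interval (chromosome 18, 37805984 to 37807662, covering the TSS and part of the variable exon). This gave a density of 887 ± 26.6, higher than 69.4% of protein-coding genes, with those lacking a TSS interval counted as 0. Pcdhac2, the last variable exon of the alpha cluster, had 1028 and 1020 counts (37143161 to 37144722) and a density of 656 ± 4.0. Both promoters were above every alternate promoter in both libraries.

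Pcdhac1, which lies between the alternate alpha exons and Pcdhac2, had 438 and 485 counts (37089655 to 37090656) and a density of 461 ± 32.9. Pcdhgc4 had 745 and 728 counts (37814341 to 37815984) and a density of 448 ± 7.57. These 2 genes differed by less than the replicate spread of Pcdhac1. Of all protein-coding genes, 52.1% and 51.6% had a lower density, with those lacking a TSS interval counted as 0. Pcdhgc5, the last variable exon of the gamma cluster, was the exception among C-type genes. No interval covered its TSS, and the nearest one began 3077 bp downstream, past the end of its variable exon, with 130 and 116 counts.

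The median density of the 4 C-type genes with a TSS interval was 562 ± 8.78, against 118 ± 8.50 over the 31 alternate genes with one. The ratio was 4.47 in replicate 1 and 5.06 in replicate 2. Among genes with a TSS interval the groups did not overlap, a description in which genes are not replicates. The lowest such C-type promoter was 1.49 ± 0.112 times the highest alternate promoter. Pcdhgc5, which has no TSS interval, counts as 0 and lies below all 31 of these alternate genes. The C-type TSS intervals were longer, with a median of 1603 bp against 599 bp. They reached a median of 369 bp upstream of the TSS, against 106 bp at alternate genes and 439 bp over all protein-coding genes with a TSS interval. Downstream they reached a median of 1062 bp, against 489 bp at alternate genes and 727 bp over all genes.

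**Figure D2:**
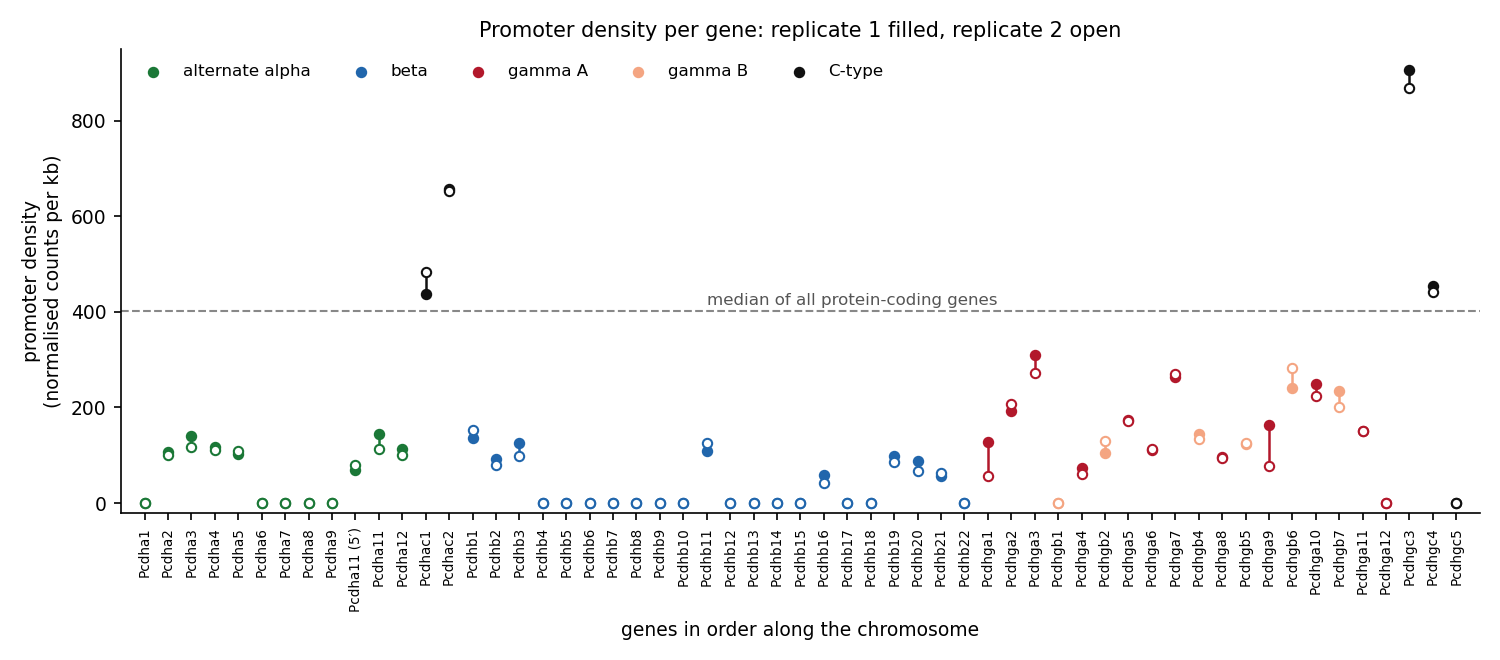
Promoter density (y axis, normalized counts per kb) of the 57 genes in chromosomal order, replicate 1 filled and replicate 2 open, joined by a line and colored by type; genes without a TSS interval are at 0. The dashed line is the median of all protein-coding genes, 402, which also counts genes without a TSS interval as 0. Only Pcdhac1, Pcdhac2, Pcdhgc3 and Pcdhgc4 lie above it.

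Among the alternate genes with a TSS interval, densities ran from 50.2 to 291. The gamma A genes had the highest median, 157 ± 9.03, followed by gamma B genes with 139 ± 7.15, alternate alpha genes with 112 ± 2.64 and beta genes with 89.6 ± 8.86. This order was the same in both libraries, with 163, 144, 113 and 95.9 in replicate 1 and 150, 134, 110 and 83.4 in replicate 2. The ranges of these 4 medians over the 2 libraries did not overlap, and single genes of the types overlapped widely.

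The alternate alpha promoters with a TSS interval ranged from 73.7 to 129. Pcdha11 was the highest with 108 and 85 counts (129 ± 21.8 normalized counts per kb), and Pcdha3, close behind, had 101 and 85 counts (128 ± 15.7). Pcdha5 had 77 and 82 counts (106 ± 4.67), Pcdha2 had 58 and 54 (104 ± 5.29), and the upstream Pcdha11 gene was the lowest with 49 and 56 counts (73.7 ± 6.91). The difference between the highest and the lowest alpha promoter was larger than the replicate SD of either. The intervals of Pcdha4 and Pcdha12 were unlike the other alpha intervals in length. They were 2443 bp and 2513 bp long and covered the TSS and most of the variable exon, with 284 and 269 counts at Pcdha4 (113 ± 4.41) and 285 and 251 at Pcdha12 (107 ± 9.63). The Pcdha4 interval also held the 5′ ends of an annotated read-through gene (Gm42416) and an antisense gene (Gm38225), and the Pcdha12 interval held that of the antisense gene Gm10545. Their counts cannot be assigned to 1 gene.

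In the beta cluster, Pcdhb1, the first gene, was the highest with 126 and 141 counts (145 ± 11.5). Pcdhb11 followed with 105 and 121 counts (117 ± 11.7) and Pcdhb3 with 56 and 44 (113 ± 19.2), and these 2 differed by less than their replicate spread. The lowest were Pcdhb16 with 45 and 32 counts (50.2 ± 12.01), Pcdhb21 with 14 and 16 (59.5 ± 5.58) and Pcdhb20 with 22 and 17 (77.1 ± 14.0). Pcdhb1 was above these 3 genes in both libraries. Between them, Pcdhb19 had 40 and 35 counts (92.8 ± 8.80) and Pcdhb2 had 37 and 32 (86.5 ± 8.91), a difference smaller than their replicate SD.

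In the gamma cluster, the highest alternate promoter was that of Pcdhga3 with 231 and 203 counts (291 ± 26.7). Pcdhga7 had 205 and 211 counts (267 ± 5.30), and Pcdhgb6 had 144 and 169 (261 ± 29.4). The lowest were Pcdhga4 with 33 and 28 counts (67.2 ± 7.83), Pcdhga1 with 69 and 31 (92.8 ± 49.9) and Pcdhga8 with 50 and 48 (95.3 ± 2.81). The Pcdhga8 interval also held the 5′ end of an antisense gene, Gm37165, so its counts cannot be assigned to 1 gene. The 3 highest were above the 3 lowest in both libraries. Between them lay Pcdhga10 with 145 and 131 counts (237 ± 17.1), Pcdhgb7 with 136 and 117 (218 ± 23.2), Pcdhga2 with 139 and 149 (201 ± 9.73) and Pcdhga5 with 125 and 123 (173 ± 2.08). Pcdhga11, Pcdhgb4, Pcdhgb5, Pcdhga9, Pcdhgb2 and Pcdhga6 followed with densities from 111 to 150.

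The replicate libraries were compared at each interval by a two-sided exact binomial test against their size factors, which covers counting error only and treats reads as independent molecules, with Benjamini-Hochberg adjustment over all 119502 intervals. None of the 73 intervals passed an adjusted p of 0.01, and neither did any interval genome-wide (0%). At an unadjusted p under 0.05 there were 5 of the 73 (6.85%), against 8.39% of all intervals. The other 3 were the Pcdhb18 exon interval, with 39 and 65 counts, the interval past the alpha cluster, with 560 and 493 counts, and the one across the end of the gamma cluster, with 1074 and 972 counts. The largest differences were at gamma A promoters. Pcdhga9 had 100 counts in replicate 1 and 48 in replicate 2 (adjusted p = 0.0546 by the exact binomial test), and Pcdhga1 had 69 and 31 (adjusted p = 0.14 by the exact binomial test). Of the 73 intervals, 28 (38.4%) had a mean normalized count over 100, against 38.8% of all intervals, and the remaining intervals rest on few reads. The 2 sets differ in make-up, because 35 of the 73 were at a member's TSS, against 12218 of 119502 at a protein-coding TSS. Of the 35, 16 (45.7%) were over 100, against 94.9% of intervals at a protein-coding TSS.

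Besides the promoters, a second class of intervals lay late in the variable exons. In 19 genes, an interval was centered within the coding part of the variable exon at least 1 kb from the TSS. The centers were between 1695 and 2524 bp from the TSS (median 1998 bp), at 64.4 to 84.8% of the exon's coding length. This late part encodes the cadherin repeats closest to the membrane. Among all 724 protein-coding genes with a coding exon of at least 2 kb, 20.3% had such an interval, against 33.3% of the clustered protocadherin genes and 19.2% of the other 667. The 19 intervals were weak, and 3 of them (15.8%) had a mean normalized count over 100, against 32.4% of intervals at no protein-coding TSS. At 4 of the 19, at least 95% of 50-mers were found once in the genome.

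These exon intervals were unevenly spread over the types. They were found in 14 of 22 beta genes (Pcdhb3, Pcdhb7 and Pcdhb10 to Pcdhb21), 4 of 6 gamma B genes (Pcdhgb2, Pcdhgb5, Pcdhgb6 and Pcdhgb7) and 1 of 12 gamma A genes (Pcdhga12). No alternate alpha gene and no C-type gene had one, although the long TSS intervals of Pcdha4 and Pcdha12 extended over the same part of the exon. Of the 19 genes, 9 had no TSS interval, and 8 of these were beta genes. Together, 48 of the 57 genes had an interval at the TSS, within 1 kb of it or late in the variable exon. The other 9 were Pcdha6, Pcdha8, Pcdha9, Pcdhb4, Pcdhb5, Pcdhb6, Pcdhb8, Pcdhb9 and Pcdhgc5.

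**Figure D3:**
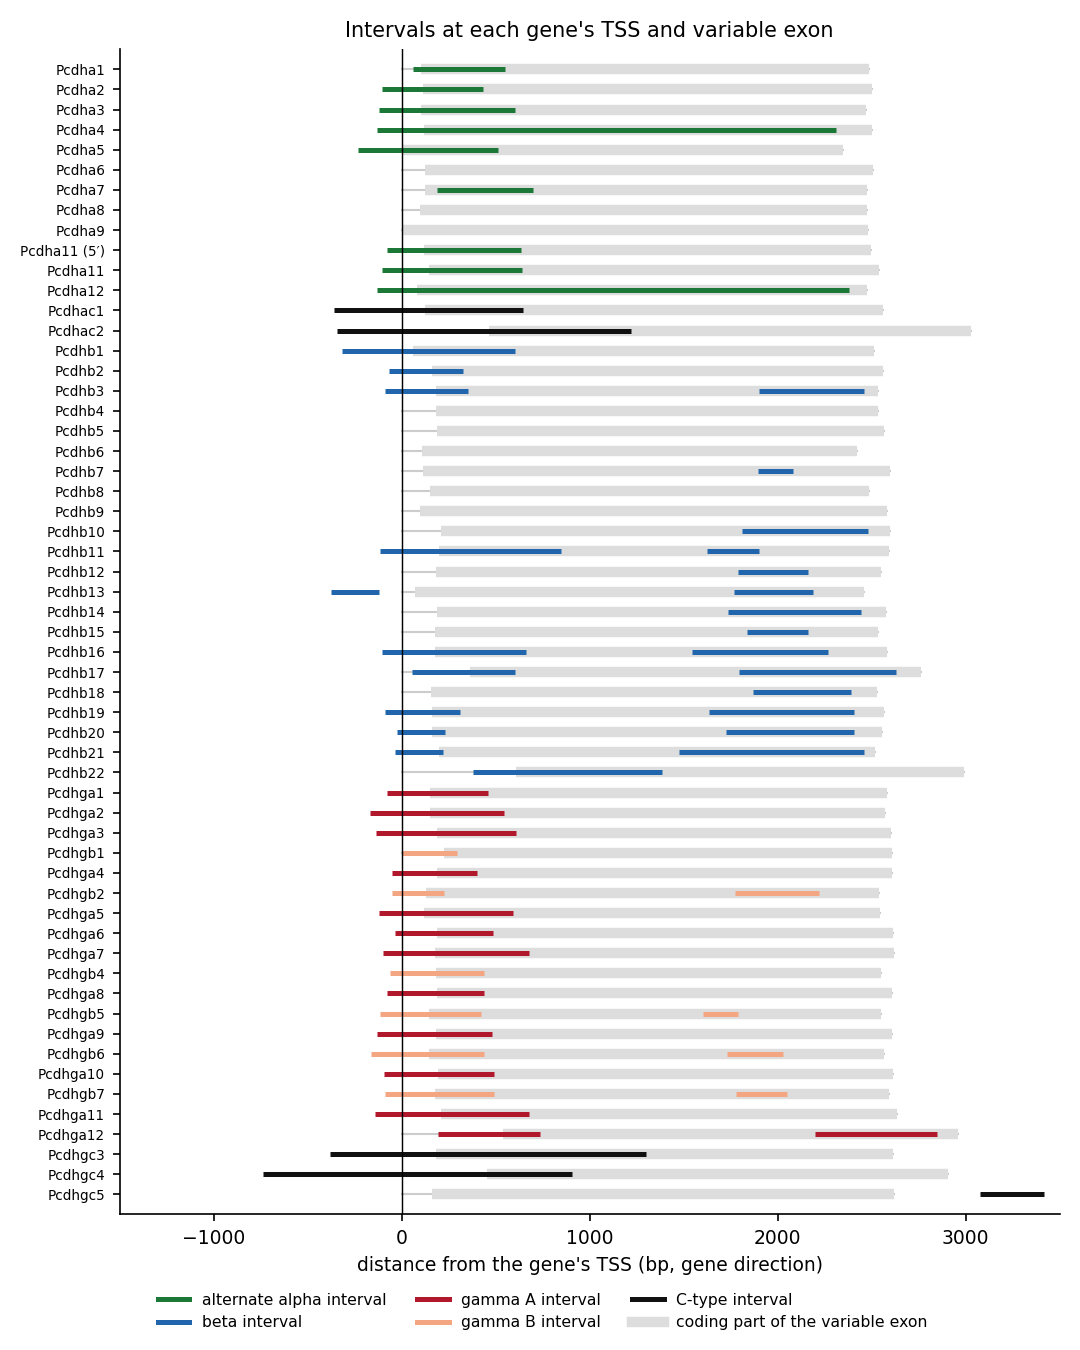
Intervals (colored bars, by gene type) around the TSS and over the coding part of the variable exon (grey bars) of each of the 57 genes, by distance from the gene's TSS (x axis, bp). Of the 22 beta genes, 14 carry an interval near 2 kb, as do 4 gamma B genes, whereas gamma A genes other than Pcdhga12 carry only the one at the TSS.

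The exon intervals had a median density of 100 ± 6.30, below the median of intervals at no protein-coding TSS over the genome (126 ± 2.05). Counts ran from 8 to 140 per library. The highest was in Pcdhb17 with 123 and 135 counts (154 ± 10.1), followed by Pcdhb19 with 104 and 112 (139 ± 7.21) and Pcdhb21 with 140 and 133 (139 ± 5.12). The lowest were in Pcdhgb2 with 23 and 15 counts (42.4 ± 12.7) and Pcdhb15 with 11 and 18 (44.6 ± 15.2). These were fewer than 30 reads in each library, so their order could not be resolved.

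In 10 genes both an exon and a TSS interval were present, and the balance between them differed by cluster. At all 4 gamma B genes the exon interval was the less dense of the pair in both libraries. The ratio of exon to TSS density was 0.340 ± 0.0466 at Pcdhgb7, 0.373 ± 0.164 at Pcdhgb2, 0.419 ± 0.0564 at Pcdhgb6 and 0.685 ± 0.309 at Pcdhgb5. At 4 of the 6 beta genes it was the denser one in both libraries. The ratio was 2.35 ± 0.306 at Pcdhb21, 2.15 ± 0.845 at Pcdhb16, 1.51 ± 0.221 at Pcdhb19 and 1.25 ± 0.308 at Pcdhb20. At Pcdhb3 (1.03 ± 0.0636) and Pcdhb11 (1.00 ± 0.0788) the exon interval was denser in 1 library of the 2, so no difference was resolved. The gamma B exon intervals held only 11 to 33 counts per library. Their median share of 50-mers found once in the genome was 71.3%, against 87.5% over the 14 beta exon intervals. The part of this in the ratios was not tested.

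Among gamma A genes, the exon interval was in the gene with the highest late-exon GC content. GC content from 60 to 90% of the exon's coding length was 59.6% in Pcdhga12, which had an exon interval, and 52.7 to 56.7% in the 11 gamma A genes without one. The Pcdhga12 exon interval also held the 5′ end of an annotated processed transcript, Gm26672, so its counts cannot be assigned to the exon alone. The exon interval of Pcdhb12 held that of an antisense gene, Gm37446. The 5 C-type genes, with no exon interval, were at 49.0 to 55.9%. The 19 exons with an interval were at 57.9 to 63.3%. Exons of high GC content without such an interval were also found. The 12 alternate alpha exons were at 57.1 to 61.4% with no separate exon interval, although the long TSS intervals of Pcdha4 and Pcdha12 covered this part. Of the 8 beta exons without one, 7 were at 58.2 to 61.5%, and the 2 gamma B exons without one were at 62.0 and 63.2%. Pcdhb1, at 43.4%, was the lowest of all and had none.

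The late exons are also alike between genes, which bears on where reads can be placed. The share of 50-mers in that part found once in the genome had a median of 77.3% in alternate alpha genes, 90.6% in beta genes, 100% in gamma A genes and 70.1% in gamma B genes. It was lowest in Pcdhgb2, at 37.6%, which had an exon interval, and in Pcdhgb1, at 40.4%, which had none. Around the TSS (1 kb centered on it), the median share was 84.3% in alternate alpha genes and 100% in beta and gamma A genes. How reads that match several members were placed was not examined, and the part of this in the densities was not tested.

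**Figure D4:**
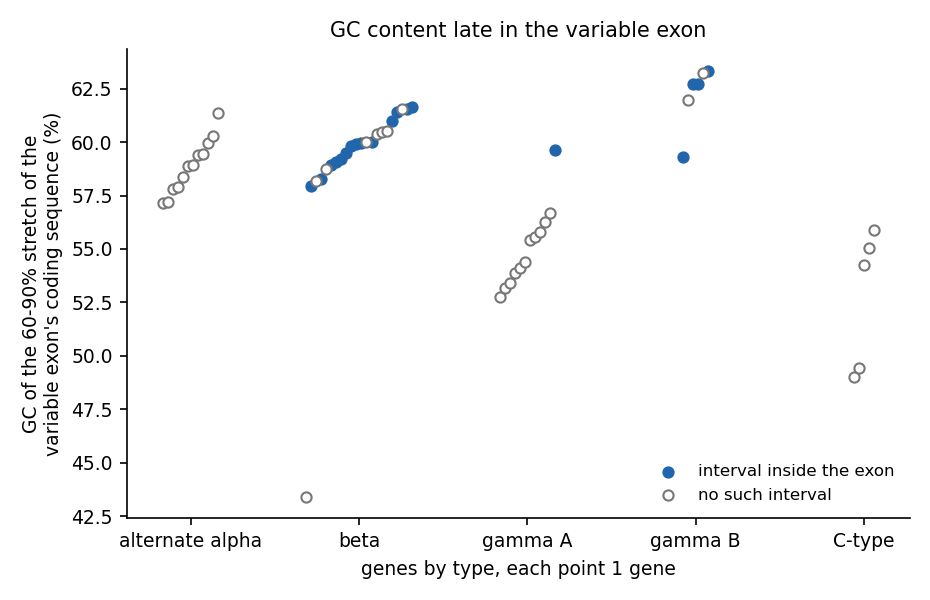
GC content (y axis, %) from 60 to 90% of the coding length of the variable exon, each point 1 gene, by type, filled where an interval lies inside the exon. The y axis does not start at 0. Pcdha4 and Pcdha12 are drawn open, although their long TSS intervals cover this part of the exon. In gamma A genes only Pcdhga12, at 59.6%, has an interval and lies above the others.

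The promoters had a lower GC content than those of other genes. In the 1 kb around the TSS, median GC content was 44.8% over the 57 genes against 54.8% over all protein-coding genes. The ratio of observed to expected CpG was 0.564 against 0.552. By type, C-type promoters had the highest GC content (median 55.9%) and beta promoters the lowest (41.4%). Beta promoters also had the lowest CpG ratio, 0.379, and alternate alpha promoters had a ratio of 0.685. Members with a TSS interval had a median GC content of 46.2% and those without one 42.0%. Over all protein-coding genes the same medians were 59.3% and 45.6%, a wider gap.

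CTCF core motifs were searched for in the same windows on both strands. The core was present in 14 of the 57 promoters (24.6%), against 10.1% of all protein-coding promoters. All 14 matches were on the sense strand, where 5.67% of all promoters had one. They were found at 10 of 12 alternate alpha genes (not Pcdha1 or Pcdha7), at Pcdhac1, and at Pcdhga5, Pcdhga10 and Pcdhga11, and at no beta or gamma B gene. All 7 alternate alpha genes with a TSS interval carried the core. Of the 5 without one, Pcdha6, Pcdha8 and Pcdha9 carried it, and Pcdha1 and Pcdha7 did not. The letters CGCT, which occur in the conserved sequence element of these promoters, were in all 57 windows and in 85.9% of all promoters. The median number of sites per window was 5 over the members and 6 over all protein-coding genes. Of the exon intervals, 4 of the 14 in beta genes (Pcdhb3, Pcdhb10, Pcdhb14 and Pcdhb21) held a CTCF core, all on the antisense strand, and none of the 5 in gamma genes did, against 8.20% of all intervals. A match is a description of sequence and not a binding site.

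The remaining 12 intervals lay outside the members' promoters and variable exons, and 1 of them was the promoter of another protein-coding gene, Taf7. Their median density was 376 ± 18.2. Without the Taf7 interval, the other 11 had a median of 363 ± 25.8, which was 2.89 ± 0.252 times the median of intervals at no protein-coding TSS over the genome. The sets are unlike, because the genome-wide set keeps intervals near a TSS or inside coding exons. Those of the members were left out of the 11. All 38 intervals other than those at a member's TSS had a median of 114 ± 0.259, below the genome-wide 126 ± 2.05 at no protein-coding TSS. The 12 ranged from 129 to 780 and overlapped the densest exon intervals (up to 154).

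The densest lay between Pcdhgc5 and the end of the gamma cluster (37824962 to 37826887), with 1495 and 1508 counts (780 ± 4.32), higher than 96.0% of intervals at no protein-coding TSS. A smaller one in the same region (37829840 to 37830391) had 330 and 299 counts (570 ± 40.0) and held the 5′ end of an antisense gene, Gm29994. Counting the interval that straddles the end of the last gene, with 1074 and 972 counts (363 ± 25.8), 5 intervals lay downstream of the Pcdhgc5 variable exon. The last of these held 2 CTCF cores, both on the antisense strand.

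In the alpha cluster, an interval near the constant exons (37178033 to 37179303) had 658 and 651 counts (515 ± 4.19) and held the 5′ end of the processed transcript Gm10544. Another lay 29.6 kb past the end of the alpha cluster, in sequence with no annotated exon (37217213 to 37218485), with 560 and 493 counts (414 ± 37.5). An enhancer of the alpha cluster is known downstream of its constant exons, and whether this interval is that element was not examined. Taf7, which encodes a subunit of the general transcription factor TFIID and lies between the beta and gamma clusters, was the only non-member protein-coding gene with a TSS interval of its own there. It had 783 and 772 counts (592 ± 6.26). The pseudogene Pcdhgb8 had 93 and 104 counts at its 5′ end (129 ± 10.1), within the range of the alternate gamma genes.

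The intervals were not evenly spaced. The gamma cluster held 32 intervals in 180 kb (178 per Mb), the beta cluster 25 in 260 kb (96.3 per Mb) and the alpha cluster 13 in 257 kb (50.5 per Mb), against 43.8 per Mb over all chromosomes. The longest stretch without one was 124 kb, between the beta cluster and Taf7. A stretch of 69.7 kb in the beta cluster held the TSSs of Pcdhb8, Pcdhb9 and Pcdhb10 and no interval.

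The comparison lists place these promoters among related genes. Of 12 non-clustered protocadherins, which lie outside these clusters, 10 had a TSS interval (all but Pcdh12 and Pcdh20). Their median density was 430 ± 15.2, close to the C-type median of 469 ± 21.6 over all 5 genes. Pcdh9 was the highest with 1398 and 1453 counts (1049 ± 28.0), and Pcdh11x, with 881 and 857 counts (243 ± 4.9), was the lowest of those with an interval. Of 19 cadherin genes, 15 had a TSS interval, with a list median of 460 ± 5.40. Cdh2, which encodes N-cadherin of neural progenitors, was the highest with 4447 and 4436 counts (1305 ± 3.04).

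Tandem gene families gave a wide range. Of 1135 olfactory receptor genes, a tandem gene family of which a mature olfactory neuron typically uses a single member, 14 (1.23%) had a TSS interval, and their highest density was 290. Of 39 Hox genes, 31 had one, and the median over the list was 376 ± 24.3. Across alternate genes of the alpha, beta and gamma clusters, the share with a TSS interval was 59.6%, and the median density over all 52 was 81.3 ± 12.1.

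**Figure D5:**
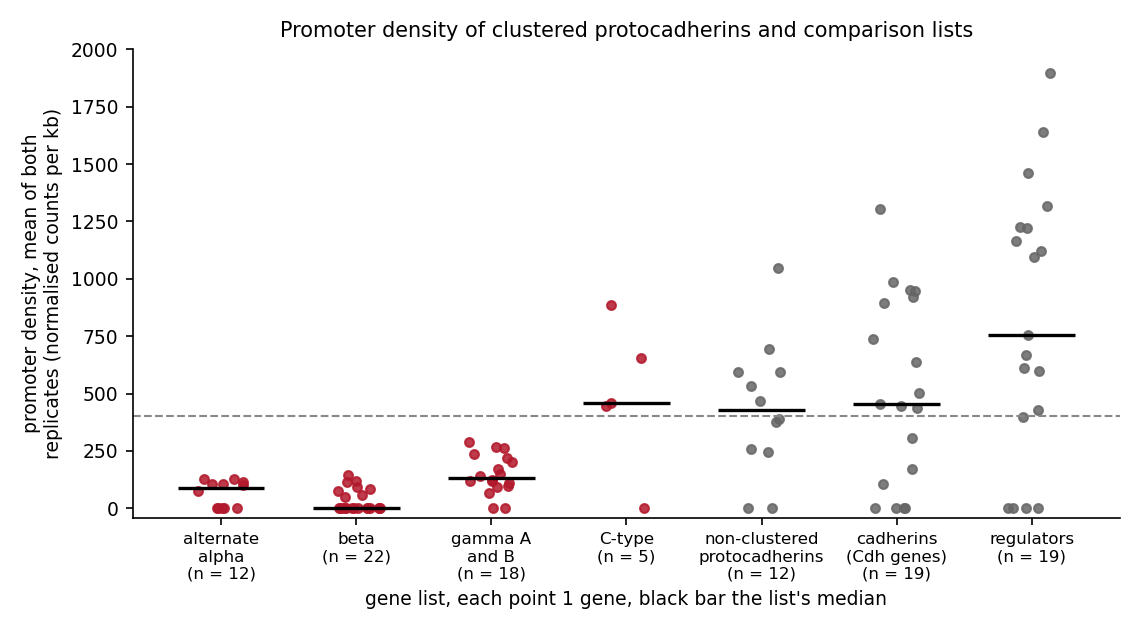
Promoter density (y axis, mean of both replicates, normalized counts per kb) of clustered protocadherins by type (red) and of 3 comparison lists (grey), each point 1 gene and the black bar the median of the list; genes without a TSS interval are at 0. The dashed line is the median of all protein-coding genes, and all alternate genes lie below it.

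Of 19 genes for factors linked to protocadherin promoter choice, 15 (78.9%) had a TSS interval, against 61.5% of all protein-coding genes. The share was the same in the cadherin list. The median density over the 19 was 753 ± 41.3, against 402 ± 7.93 over all protein-coding genes. Smchd1, which encodes a chromatin protein that represses the clusters, was the highest with 2794 and 2800 counts (1896 ± 1.8). Ctcf had 3385 and 3141 counts (1463 ± 78.2), and Wapl, which encodes the cohesin release factor, had 2318 and 2330 (1641 ± 5.04). Dnmt3b, a DNA methyltransferase gene linked to methylation of these promoters, had 1067 and 963 counts (668 ± 48.8). Trim28, Dnmt1, Stag1 and Dnmt3a had no interval at the 5′ end of the annotated gene. Promoter accessibility does not measure the amount of these proteins.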

How the data were processed

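Both live-cell ATAC-seq libraries of 1 group were used. The deposited file holds raw counts of read pairs per consensus interval, which the authors made with the nf-core ATAC-seq pipeline on mm10 and featureCounts 2.0.1 (minimum overlap fraction 0.2, reads allowed in several intervals). Intervals were peaks kept in a consensus over 5 libraries of the study, and 3 columns of other libraries were not used. An interval may therefore rest partly on peaks called in those 3 libraries, which matters most for intervals with few counts.

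Size factors from DESeq2 1.42.0 scaled the counts, with edgeR 4.0.16 TMM factors and total counts as alternatives, and density is the scaled count per kb of interval. With 1 group, no condition was tested. The replicates were compared by the exact binomial test (SciPy 1.17.1), adjusted by the Benjamini-Hochberg method, and the script was first checked on simulated data. Size factors were 1.00 in both libraries. Genes came from GENCODE vM21 and sequence features from GRCm38. The CTCF core had 8 fixed letters in 12 positions. No sequence is printed for this chromosome.

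All genes were counted. Those named with values were the C-type genes, the 3 highest and 3 lowest promoters of each cluster, genes without a TSS interval, the 5 densest other intervals, non-member genes with an interval, and replicate outliers. The class of exon intervals, Pcdha3, Pcdha4, Pcdha12, the intermediate beta and gamma promoters and the genes named from the lists were picked with values in view. The members and lists were chosen with earlier results of these data known.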

Additional observations from a re-analysis of the deposited data

How the results depend on the processing

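Of 65 alternative values for the main results, 46 stayed within the replicate spread or within 1.5 times a count, and 19 did not. Part of the 46 was fixed in advance, so their number does not measure robustness. Medians and ratios with 1 replicate left out always stay within the replicate SD. TMM factors cannot change a ratio taken within a library, and no scaling factor can move a beta median of 0. No interval passed the replicate test under any setting for these genes, whereas TMM factors gave 6 calls over all intervals and the other settings 0. With a mean normalized count over 100, 16 of the 35 genes (45.7%) kept a TSS interval, against 94.9% of intervals at a protein-coding TSS. Of the 19 exon intervals, 3 (15.8%) were kept, against 32.4% of intervals at no protein-coding TSS. Counts per interval in place of density gave medians of 40.0 (all genes), 68.2 (alpha) and 84.0 (gamma), 64.2 for the other intervals, a ratio to all genes of 0.0803, and a ratio of C-type to alternate genes of 12.2. Restricting to genes with a TSS interval gave 123, 113 (alpha), 89.6 (beta) and 165 (gamma), and a ratio of 0.139. Intervals within 1 kb gave 106 (alpha) and 24.3 (beta), where the main beta median was 0. With any transcript start, the other intervals had a median of 118. Counting genes without a TSS interval as 0 gave a C-type ratio of 5.85. Of the exon intervals, 8 were centered at least 2 kb from the TSS and 4 had at least 95% unique 50-mers. The settings for exon intervals, for the ratio of C-type to alternate genes and for leaving out Taf7 were chosen after seeing the data. Beyond fewer genes or another unit, the cause was not tested.

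Leaving out each replicate gave medians of 78.6 to 97.3 (all), 99.8 to 105 (alpha), 0 to 0 (beta) and 134 to 151 (gamma). The ratios ran from 0.198 to 0.239 (all genes) and from 4.47 to 5.06 (C-type), the other intervals from 114.0 to 114.3, and exon intervals denser than the TSS interval numbered 5 to 5 against 6. No paired analysis was possible because there is 1 group.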

Other observations

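Diaph1, which encodes a formin and follows the gamma cluster, held further intervals within 100 kb of the last clustered protocadherin gene. There were 8 of them, and none lay within 100 kb upstream of Pcdha1. The densest apart from the Diaph1 TSS interval was 37.9 kb past the gamma cluster (37879765 to 37880615), with 535 and 496 counts (606 ± 32.8 normalized counts per kb). Another, 9.56 kb past it (37851428 to 37852598), had 557 and 559 counts (477 ± 0.932), and one 41.7 kb past it had 311 and 281 (423 ± 30.6). The Diaph1 TSS interval had 1790 and 1720 counts (1994 ± 57.4). Enhancers of the beta and gamma clusters are known in this direction, and whether these intervals are such elements was not examined.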
